A study of Mus musculus with 6 samples.

Results

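T cell receptor gene segments were examined in bulk RNA from infarcted mouse hearts. The segments were taken as the table rows whose gene biotype was variable (V), diversity (D), joining (J) or constant (C) T cell receptor gene, and they were assigned to the alpha, beta, delta or gamma chain by the prefix of the gene name. This gave 226 of the 54532 genes in the table. They comprised 144 V, 4 D, 70 J and 8 C segments. By chain, 160 were named Tra, 39 Trb, 10 Trd and 15 Trg or Tcrg, and 2 carried no such prefix.

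RNA of the infarct and its border was sequenced from 3 WT hearts and 3 hearts of Crlf2-/- mice, labelled TSLPR KO, to compare gene expression after loss of the receptor for thymic stromal lymphopoietin (TSLP). All 6 mice were of the C57BL/6 strain and underwent ligation of the left anterior descending coronary artery, with tissue taken on day 7, so that no uninjured heart enters the comparison. Per the study's methods, the WT mice were male C57BL/6J mice from one supplier and the Crlf2-/- mice were made by another company on that background, so genotype and mouse source cannot be told apart. The labels give no age, no litter and no indication that 1 library pooled several mice. The methods give an age range for the purchased C57BL/6J mice and state none for the Crlf2-/- mice.

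A T cell receptor is a pair of chains, alpha with beta or gamma with delta, and each chain is built by joining 1 V, 1 J and, for beta and delta, a D segment during T cell development, after which splicing adds a C segment. Because the joined V segment differs from cell to cell while the C segment is shared, transcripts of C segments sum over all T cells of a kind, whereas V segments sample the repertoire. Alpha-beta T cells include the CD4+ and CD8+ cells that recognise peptides on MHC molecules, and gamma-delta T cells are a smaller lineage found mainly in epithelia and other tissues. The delta genes lie inside the alpha locus on chromosome 14, and some V segments there can serve either chain.

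Libraries held between 18508646 and 19682428 fragments on listed genes. Fragments on Crlf2, the targeted gene, numbered 917, 813 and 707 in the WT libraries against 437, 651 and 667 in the Crlf2-/- libraries. All 3 Crlf2-/- values lay below the WT values, but the log2 fold change of -0.51 did not pass the limma test (Benjamini-Hochberg adjusted p = 0.525). These values cover the whole gene and do not show which part was deleted. The extraction text of the labels names another tissue, whereas the tissue label and the study's methods say heart. The summed level of 5 heart genes (Myh6, Actc1, Tnnt2, Tnni3 and Ryr2) was 837 to 1641 FPKM in WT and 571 to 1122 FPKM in Crlf2-/- libraries, where FPKM is fragments per kilobase of gene, relative to library depth. All 5 had a negative log2 fold change, with a median of -0.69, and their part in the receptor results was not tested.

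Some segments resemble each other closely, which bears on how far their fragments can be told apart. Trbc1 and Trbc2, the alternative C segments of the beta chain, have coding sequences of 518 bases that differ at 23, an identity of 95.6%, and the first difference is at base 260. Their last 150 coding bases, from base 369, are shown because they hold most of what separates the pair, with differing bases in capitals. All sequences shown are joined coding exons of GENCODE M21 transcripts on GRCm38, 5′ to 3′ on the plus strand of the chromosome.
Trbc1: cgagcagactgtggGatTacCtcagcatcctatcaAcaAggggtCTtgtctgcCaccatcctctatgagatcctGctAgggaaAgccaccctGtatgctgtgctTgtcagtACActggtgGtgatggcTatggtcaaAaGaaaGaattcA
Trbc2: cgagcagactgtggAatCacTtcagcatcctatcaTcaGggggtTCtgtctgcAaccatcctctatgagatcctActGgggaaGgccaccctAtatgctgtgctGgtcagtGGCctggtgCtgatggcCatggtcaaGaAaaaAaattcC
In stretches of 100 bases along each transcript, 28.2% of those of Trbc1 and 30.9% of those of Trbc2 occurred identically in another receptor gene. Fragments that lay wholly in such stretches carry nothing that separates the pair.

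The alpha locus of C57BL/6 mice holds repeated blocks of V segments, whose copies carry the letters d and n in their names. Of the 108 Tra V segments, 52 shared more than 50% of their stretches of 100 bases with another receptor gene, against 0 of the 22 Trb V segments. The first 150 coding bases of 3 related copies are shown because 2 of them were among the alpha V segments with the most fragments and all 3 are nearly identical over their coding bases. They carried 22, 14 and 6 fragments in all libraries together. They belong to the 56 segments below that limit, with 23.2%, 22.9% and 1.96% of stretches shared. They lie at chr14:53763173-53763694 (Trav14-3), chr14:53370077-53370575 (Trav14n-3) and chr14:53078452-53079045 (Trav14d-3-dv8). Capitals mark bases at which the 3 copies are not all alike.
Trav14-3: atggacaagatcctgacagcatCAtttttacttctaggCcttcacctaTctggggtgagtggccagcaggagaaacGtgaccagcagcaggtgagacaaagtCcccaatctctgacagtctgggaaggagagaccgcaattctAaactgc
Trav14n-3: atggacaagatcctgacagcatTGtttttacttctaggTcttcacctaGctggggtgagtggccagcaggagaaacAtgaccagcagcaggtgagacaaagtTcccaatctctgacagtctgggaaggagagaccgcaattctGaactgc
Trav14d-3-dv8: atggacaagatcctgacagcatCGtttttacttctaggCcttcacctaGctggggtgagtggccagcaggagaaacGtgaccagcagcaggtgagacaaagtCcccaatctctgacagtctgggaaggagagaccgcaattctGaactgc
Over 361 coding bases, Trav14-3 differed from Trav14n-3 at 10 bases, an identity of 97.2%, and Trav14n-3 differed from Trav14d-3-dv8 at 12, an identity of 96.7%.

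Receptor transcripts were scarce. The 226 segments together received 2170 fragments, 1369 in WT and 801 in Crlf2-/- libraries, and 1746 of them lay on the 8 C segments. V segments held 385 fragments, J segments 37 and D segments 2. No fragment was counted on 144 segments in any library, a further 45 had 1 to 3 fragments in total, and 37 had 4 or more. With 0 fragments in a library, up to 3 may have been missed by counting alone, so a segment listed at 0 is not shown to be absent. In WT libraries 66 segments were detected and in Crlf2-/- libraries 51, of which 35 were shared, 53.0% of the WT list and 68.6% of the Crlf2-/- list.

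Summed over all segments, the receptor signal was 24.4 ± 4.16 FPM (fragments per 1000000 fragments on listed genes after scaling, SD, n = 3) in WT and 14.1 ± 1.32 FPM (SD, n = 3) in Crlf2-/- libraries, a log2 ratio of -0.79, and the groups did not overlap. Leaving out 1 library at a time kept this ratio between -0.93 and -0.70. Such sums over chosen segments were not given a p-value, and with 3 mice against 3 an exact permutation test cannot go below 0.1. In bulk RNA, fewer T cells and less receptor RNA per cell cannot be told apart.

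The beta chain showed the widest separation of the 4 chains. Trb segments received 256, 240 and 153 fragments in WT libraries and 93, 91 and 90 in Crlf2-/- libraries, so the groups were apart, and the Crlf2-/- values hardly varied among themselves. This was 11.5 ± 2.79 FPM in WT and 4.80 ± 0.209 in Crlf2-/- libraries (SD, n = 3 each), 41.6% of the WT level.
Tra segments received 188, 234 and 164 fragments in WT against 140, 128 and 108 in Crlf2-/- libraries, again without overlap. The means were 10.5 ± 1.98 and 6.59 ± 0.927 FPM (SD, n = 3 each), and the log2 ratio was -0.66, against -1.26 for Trb. The groups overlapped for Tra with FPKM summed (-0.41) and with the constant gene left out (-0.073).

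The gamma and delta chains gave another picture. Trd segments received 27, 6 and 28 fragments in WT against 35, 25 and 34 in Crlf2-/- libraries. The groups overlapped, and WT 2 stood apart with 6 fragments (95% Poisson interval 2.20 to 13.1, counting error only). The log2 ratio was 0.61 with all libraries, and the log2 ratio was 0.18 without WT 2. Without WT 3 it was 0.94. With FPKM summed in place of fragments its sign turned, to -0.34, and with the constant gene left out it was 0.35.
Trg segments received 29, 26 and 16 fragments in WT against 20, 19 and 18 in Crlf2-/- libraries, a log2 ratio of -0.34, and WT 3 lay below the whole Crlf2-/- group. The ratio was -0.54 without WT 3, when the groups no longer overlapped, -0.19 without WT 1 and -0.17 with constant genes left out. Delta and gamma segments together were 2.34 ± 0.585 FPM in WT and 2.65 ± 0.382 in Crlf2-/- libraries (SD, n = 3 each), with overlapping groups and a log2 ratio of 0.18.

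**Figure D1:**
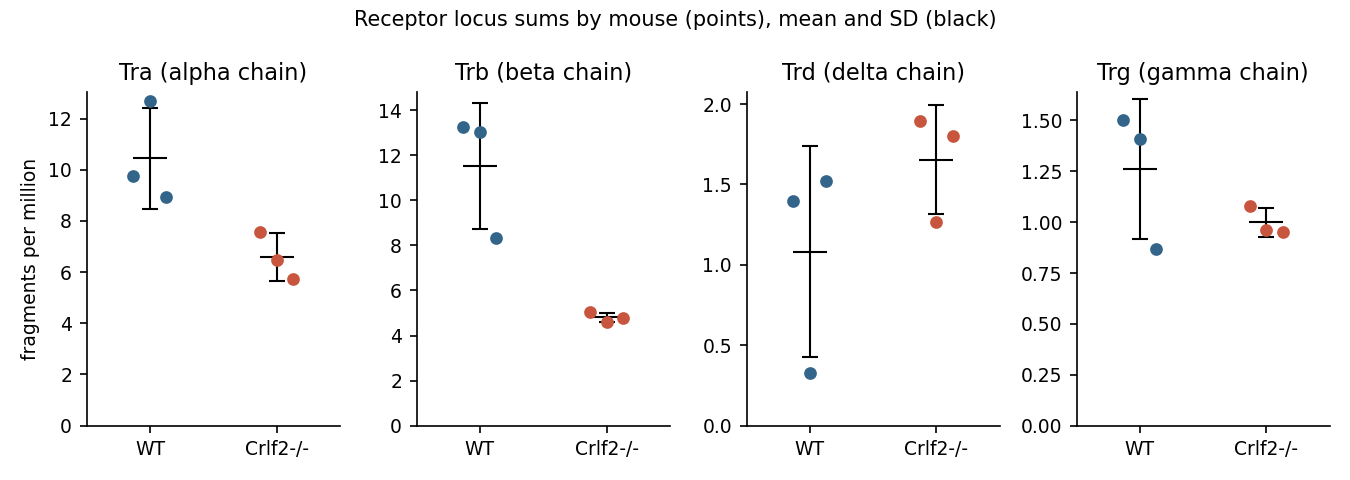
FPM summed over the segments of each receptor chain, with 1 point per mouse and the mean and SD of 3 mice in black for WT (blue) and Crlf2-/- (red). The groups are apart for the alpha and beta chains and overlap for the delta and gamma chains, where 1 WT library with 6 delta fragments lies far below the others.

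Of the 226 segments, 5 held enough fragments for a test of the single gene, namely Trac, Trbc1, Trbc2, Trdc and Trdv4. None of the 5 was called by limma when both an adjusted p up to 0.05 and a log2 fold change of 0.5 or more in size were required, a rule that called 0.0129% of all 15520 genes tested. At an unadjusted p under 0.05, 3 of the 5 were lower in Crlf2-/- libraries and 0 were higher, where 3.25% of all genes tested were lower. The voom variant of limma on fragments also gave 0 calls and the same numbers at an unadjusted p under 0.05. Tested without the filter on low genes, 0 of 82 segments were called. At an unadjusted limma p under 0.05, 10 of the 82 were lower and 0 higher, where 2.62% of the 26815 genes then tested were lower. Of the 82, 31 had fragments in WT libraries alone and 16 in Crlf2-/- libraries alone, so each of these could differ in a single direction only. The count of 10 was not worked out without them and is not taken as support. Every Crlf2-/- value lay below every WT value for 2 of the 5, Trac and Trbc2, beside 6.21% of all genes tested.

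Trbc2 (ENSMUSG00000076498, chr6:41546730-41548352, plus strand), the second beta constant gene, had the smallest p-value of the segments. Its 123, 97 and 88 fragments in WT faced 28, 44 and 32 in Crlf2-/- libraries. The highest Crlf2-/- library reached 44 fragments, under the 88 of the lowest WT library. Per length, this was 6.65 ± 0.992 FPKM against 2.20 ± 0.453 FPKM (SD, n = 3 each), a log2 fold change of -1.56 with a standard error of 0.17, and the limma adjusted p was 0.0633. Over all alternatives this adjusted p ran from 0.0516 to 0.348, so the gene missed the threshold in each of them.
Trbc1 (ENSMUSG00000076490, chr6:41538218-41539881, plus strand) lies upstream of it and encodes nearly the same protein region. It had 84, 75 and 43 fragments in WT against 49, 28 and 42 in Crlf2-/- libraries, and the lowest WT library fell inside the Crlf2-/- range. The levels were 4.03 ± 1.22 FPKM and 2.36 ± 0.701 FPKM (SD, n = 3 each), with a log2 fold change of -0.74 and a limma adjusted p of 0.691. Without WT 3 the log2 fold change was -1.02 and without Crlf2-/- 2 it was -0.50.

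The share of Trbc2 among beta constant fragments was 59.4%, 56.4% and 67.2% in WT and 36.4%, 61.1% and 43.2% in Crlf2-/- libraries. Crlf2-/- 2 lay within the WT range, while the other Crlf2-/- libraries lay below it. The exact 95% binomial intervals of the shares, for example 25.7% to 48.3% for Crlf2-/- 1, cover counting error alone, and the similar stretches of the pair described above add to it.

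Trac (ENSMUSG00000076928, chr14:54220521-54224206, plus strand), the only alpha constant gene, carried more fragments than any other segment. It had 178, 196 and 138 fragments in WT against 114, 107 and 83 in Crlf2-/- libraries, and the groups did not overlap. Levels were 8.20 ± 1.41 FPKM and 4.79 ± 0.797 FPKM (SD, n = 3 each), the log2 fold change was -0.76 with a standard error of 0.17, and the limma adjusted p was 0.255.
In WT libraries the order of levels per length was Trac, Trbc2, Trbc1, and the SD ranges of Trac and Trbc2 overlapped. In Crlf2-/- libraries Trac came first, and Trbc1 and Trbc2 did not differ beyond their spread.

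Trdc (ENSMUSG00000104876, chr14:54142851-54148868, plus strand), the delta constant gene, had 12, 4 and 14 fragments in WT against 20, 12 and 22 in Crlf2-/- libraries. The groups overlapped, since Crlf2-/- 2 equalled WT 1. Its log2 fold change was 0.53 with a limma adjusted p of 0.865, and without WT 2 it was 0.27. It was 0.91 with voom, 0.89 with a pseudocount of 0.01 FPKM in place of 0.1 and 0.11 with a pseudocount of 1. On the annotation Trdc overlaps 2 genes on the opposite strand, Trdv5, with 1 fragment, and Gm43434, with 4 fragments in all libraries.
The gamma constant genes lie on chromosome 13, Tcrg-C1 at chr13:19214103-19217024 and Tcrg-C2 at chr13:19304649-19307551, and were below the filter. Tcrg-C1 had 11, 5 and 7 fragments in WT against 5, 12 and 8 in Crlf2-/- libraries. Tcrg-C2 had 12, 16 and 5 against 6, 5 and 4, and Tcrg-C4 had 1, 4 and 2 against 5, 2 and 2. All 3 overlapped between the groups. Tcrg-C3 had a single fragment, in Crlf2-/- 1.

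**Figure D2:**
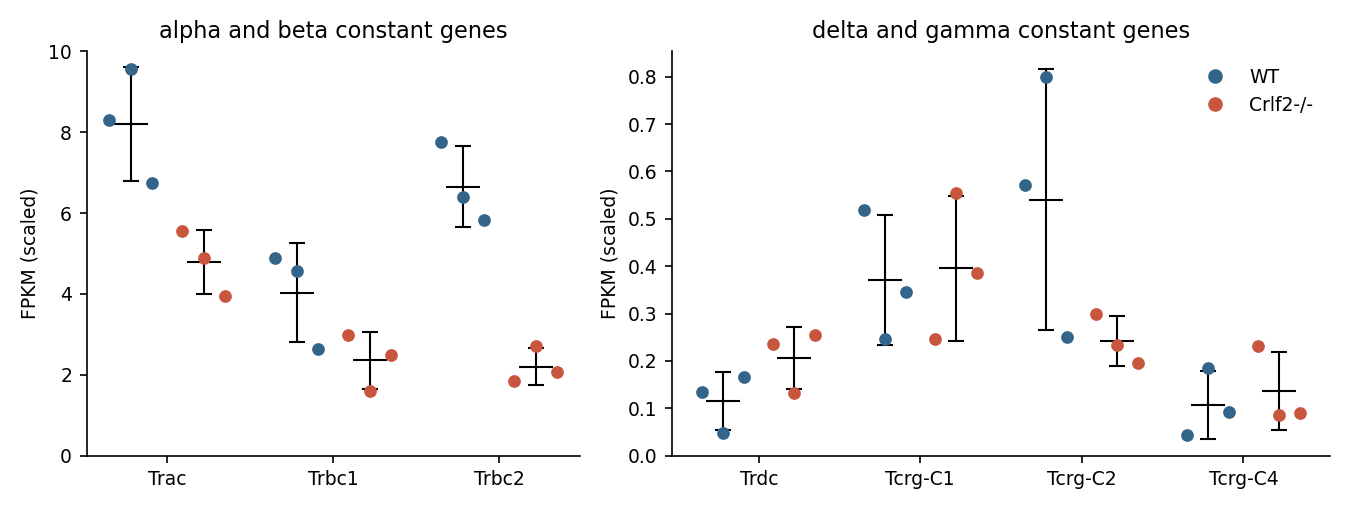
Level per length (scaled FPKM) of the constant genes with fragments in every library, 1 point per mouse, with the mean and SD of 3 mice in black, on separate vertical scales for alpha and beta (left) and for delta and gamma (right). Trac and Trbc2 are separated between WT (blue) and Crlf2-/- (red), and the other genes overlap.

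The make-up of the receptor signal was compared next. Gamma and delta segments held 11.2%, 6.32% and 12.2% of all fragments with a chain in WT libraries and 19.1%, 16.7% and 20.8% in Crlf2-/- libraries. The highest WT share, 12.2% (exact 95% binomial interval 9.0% to 16%), lay under the lowest Crlf2-/- share, 16.7% (12.4% to 21.8%). Their group means were 9.90% ± 3.14 and 18.9% ± 2.04 (SD, n = 3 each).
Counting constant genes alone, which leaves out V segments that could serve alpha or delta, the shares were 8.55%, 7.30% and 9.43% in WT and 16.2%, 14.8% and 18.7% in Crlf2-/- libraries. The groups were again apart, so the order did not rest on the V segments. Setting Trdc against Trac alone, Trdc held 6.32%, 2.0% and 9.21% in WT and 14.9%, 10.1% and 21.0% in Crlf2-/- libraries. Any such share depends on the other chains too, and in FPM the gamma-delta sums of the groups overlapped.

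**Figure D3:**
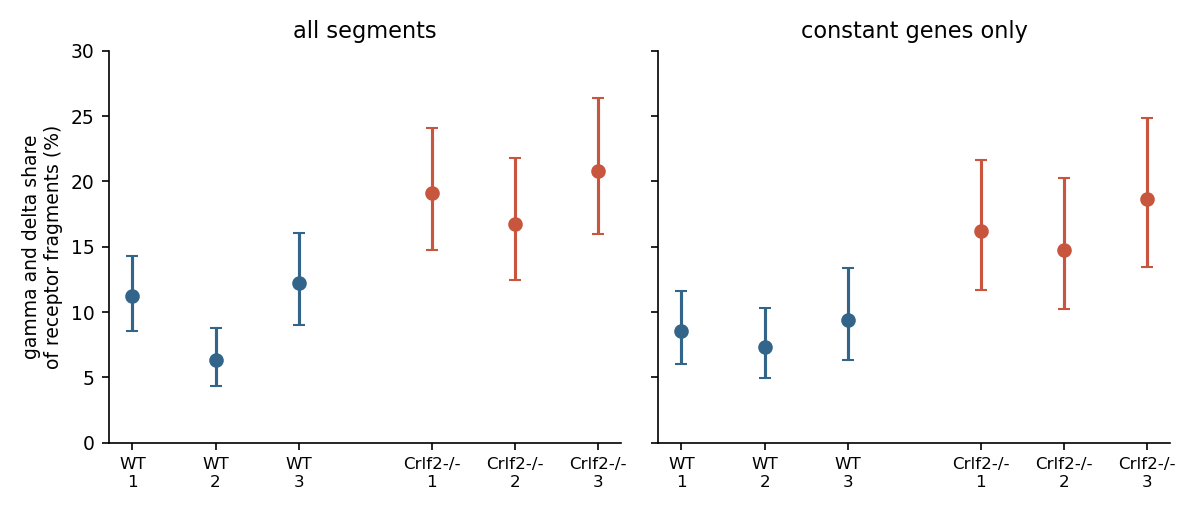
Share of receptor fragments on gamma and delta segments in each library (percent), over all segments (left) and over constant genes alone (right), with exact 95% binomial intervals that cover counting error only. The 3 Crlf2-/- libraries (red) lie at 16.7% to 20.8% on the left and above all WT libraries (blue) in both panels.

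Among beta V segments, which encode most of the antigen-facing part of the beta chain, 18 of 22 had a fragment. Together they received 42, 59 and 20 fragments in WT against 13, 13 and 12 in Crlf2-/- libraries, a log2 ratio of -1.69 without overlap of the groups. Of the 18, 13 had more fragments in WT, 2 had more in Crlf2-/- libraries and 3 had equal numbers, a count that uses the same fragments as the sum. Of these 18, 5 were seen in 1 library only.
Trbv16, the beta V segment with the most fragments, had 8, 10 and 3 in WT and 2, 3 and 1 in Crlf2-/- libraries. Its WT 3 and Crlf2-/- 2 libraries both held 3 fragments, which were 0.345 and 0.321 FPKM. Trbv12-2 had 5, 10 and 5 against 2, 0 and 1, and here the groups were apart. Counted in fragments, the groups were also apart for Trbv3, with 8, 2 and 1 in WT and 0 in each Crlf2-/- library. Trbv17, with 5, 2 and 1 against 0, 0 and 1, was tied in fragments and, like Trbv16, narrowly apart in FPKM. Trbv3 and Trbv17 are named after their values were seen. Trbv1 had 5, 3 and 1 fragments against 2, 2 and 1, and Trbv13-2 had 4, 6 and 1 against 0, 0 and 2, with overlap in both. Trbv13-1 and Trbv14 had the same total, 12 fragments each, spread over both groups.
At counts this low a single segment says little of the groups. The number of beta V segments detected was 10, 13 and 9 in WT and 7, 5 and 8 in Crlf2-/- libraries. Thinned to 12 fragments per library, the number of fragments in the smallest library, the expected number was 6.87, 7.55 and 6.88 in WT and 6.85, 4.92 and 8.0 in Crlf2-/- libraries. The groups then overlapped.

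Over all 6 libraries, alpha V segments did not separate the groups as Trac did. The 108 segments received 73 fragments in WT and 68 in Crlf2-/- libraries together, a log2 ratio of -0.14 with overlapping groups, and 32 of them had a fragment. Of these 32, 21 had more fragments in WT, 10 had more in Crlf2-/- libraries and 1 had equal numbers. Also 21 of the 32 were seen in 1 library only. By library, 10, 37 and 26 fragments were counted in WT and 23, 21 and 24 in Crlf2-/- libraries, so that WT 1 was lowest and WT 2 highest of all 6. In FPM these were 0.518, 2.01 and 1.41 in WT and 1.24, 1.06 and 1.27 in Crlf2-/- libraries. WT 2 and WT 3 lay above every Crlf2-/- library, so the overlap came through WT 1. For WT 3 the margin was narrow, as its 95% Poisson interval, 0.924 to 2.07 FPM (counting error only), held every Crlf2-/- value. Of its 26 fragments, 9 lay on Trav9n-3, which had none in any other library. That segment shared 100% of its stretches of 100 bases with another receptor gene. The constant gene held 94.7% of alpha fragments in WT 1 and 76.9% to 84.1% in the other 5 libraries.
Trav13-4-dv7, which can join to alpha or delta segments, had 0, 8 and 3 fragments in WT against 3, 4 and 8 in Crlf2-/- libraries. Trav14-3 had 4, 6 and 3 against 1, 8 and 0, and its copy Trav14n-3 had 0, 4 and 0 against 6, 4 and 0. Trav13n-4 had 1, 0 and 0 against 0, 2 and 7, and Trav9n-3 had 9 fragments in WT 3 and 0 elsewhere. None of these segments separated the groups.
The 52 segments with more than 50% of shared stretches received 15 fragments on 6 segments, whereas the other 56 received 126 fragments on 26 segments. Thinned to 10 fragments per library, the expected number of alpha V segments was 6.00, 7.02 and 6.38 in WT and 6.55, 4.84 and 4.98 in Crlf2-/- libraries, which overlapped.

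Along the alpha locus, fragments lay more often on V segments near the constant gene. The 27 V segments within 700 kb of Trac held 36 fragments in WT and 32 in Crlf2-/- libraries, the 29 between 700 and 1000 kb held 22 and 26, and the 52 farther away held 15 and 10. Most fragments within 700 kb lay on Trav13-4-dv7, with 26 in all libraries, and Trav14-3, with 22. The segments with a fragment numbered 11, 10 and 11 from near to far. The part of shared sequence in this order was not tested. All 10 V segments named for both chains together had 18 fragments in WT and 17 in Crlf2-/- libraries.

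**Figure D4:**
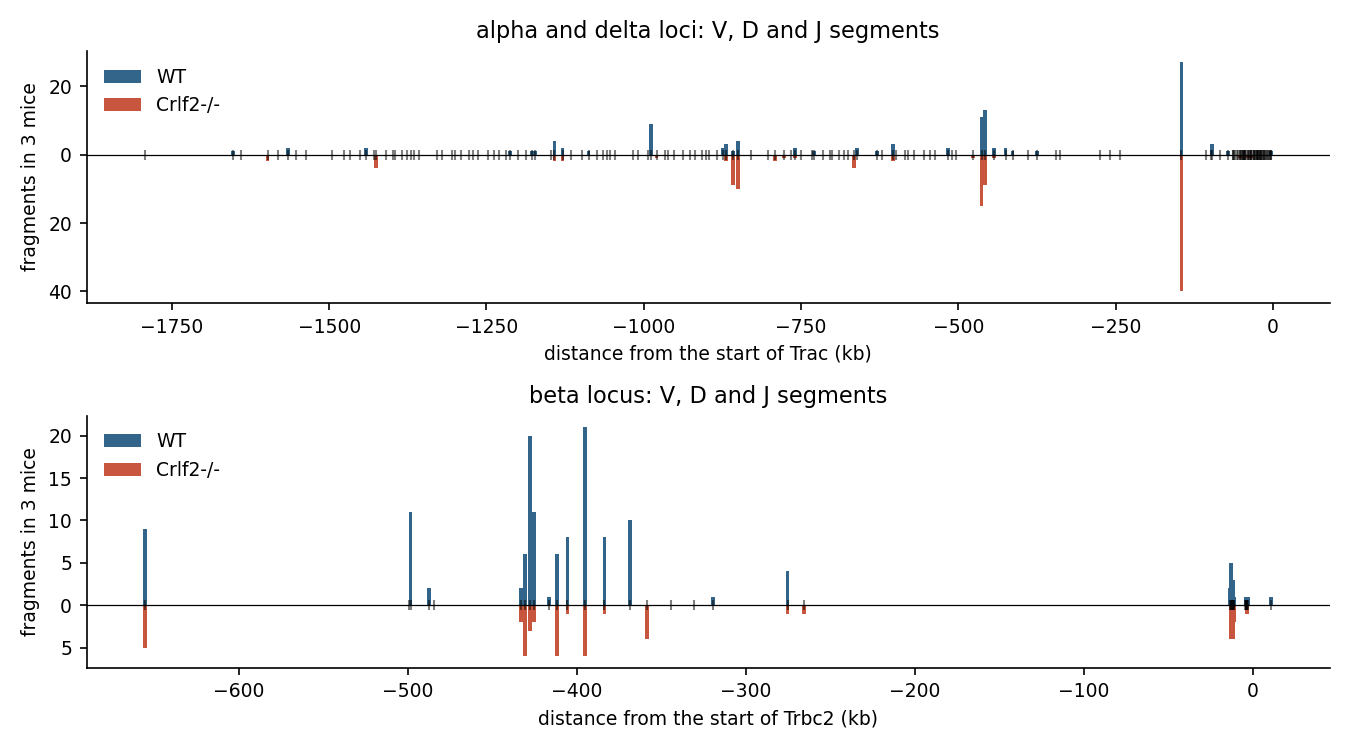
Fragments on the V, D and J segments of the alpha and delta loci (top) and of the beta locus (bottom), summed over 3 mice, by distance from the start of Trac or Trbc2 in kb, with WT upward (blue), Crlf2-/- downward (red) and ticks for every segment. Beta V bars are taller for WT, and the tallest bar of the upper panel is the delta segment Trdv4.

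Trdv4 (ENSMUSG00000076867, chr14:54074905-54075515, plus strand), a delta V segment, held more fragments than any other V segment, 67 of the 385. It had 14, 1 and 12 fragments in WT against 15, 13 and 12 in Crlf2-/- libraries, so that WT 2 stood alone at 1 fragment and the others spanned 12 to 15. The log2 fold change of 0.95 (limma adjusted p = 0.934) was 0.02 without WT 2, 1.45 without WT 1, 1.38 without WT 3 and 0.37 with a pseudocount of 1 FPKM. The antisense gene Gm30275 at this position held 1 fragment in total. The last 60 coding bases of Trdv4, from base 286, are shown because they hold codons for tyrosine, tyrosine and cysteine, in capitals, near the end of the V segment.
Trdv4: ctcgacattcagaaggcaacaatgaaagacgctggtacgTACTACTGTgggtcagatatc
The only other delta segments with a fragment outside Trdc were Trdv5, with 1, and Trdj1, with 3, all in WT libraries. Among gamma V segments Trgv2 led with 3, 0 and 2 fragments in WT against 2, 0 and 3 in Crlf2-/- libraries, and Tcrg-V6 had 2 fragments, 1 in each group. Tcrg-V1, Tcrg-V4 and Tcrg-V7 had 1 fragment each.

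J segments are short and received few fragments. In the first beta cluster, upstream of Trbc1, 6 of 7 J segments had a fragment, 14 fragments in WT and 12 in Crlf2-/- libraries. In the second cluster, upstream of Trbc2, 3 of 6 had one, with 2 and 1. Trbj1-1, Trbj1-2 and Trbj1-4 had 6 fragments each. Of the 51 alpha J segments, 5 had 1 fragment each, 1 in WT and 4 in Crlf2-/- libraries.
The segments that mark innate-like T cells were also looked up. Trav11, Trav11d and Traj18, which form the invariant alpha chain of NKT cells, and Trav1, used by MAIT cells, were at 0 fragments in every library. Trav11 and Trav11d shared 99.6% and 100% of their stretches of 100 bases with another receptor gene, and Traj18 has only 66 bases. Their values of 0 therefore do not show that the NKT chain was absent. Traj33, the J segment of MAIT cells, had 1 fragment, in Crlf2-/- 1. Of the beta segments common in NKT cells, Trbv29 had 1, 3 and 0 fragments in WT against 0, 0 and 1 in Crlf2-/- libraries, and Trbv1 and Trbv13-2 are given above.

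The receptor chains reach the cell surface only with the CD3 chains. Cd3e, Cd3d and Cd3g together had 218, 279 and 163 fragments in WT against 83, 70 and 73 in Crlf2-/- libraries, 11.8 ± 3.16 and 3.97 ± 0.477 FPM (SD, n = 3 each), a log2 ratio of -1.57. The groups were apart, and this ratio was further from 0 than that of the alpha and beta segments, which was -0.95.
Alpha and beta fragments per CD3 fragment were therefore 2.04, 1.70 and 1.94 in WT and 2.81, 3.13 and 2.71 in Crlf2-/- libraries. Gamma and delta fragments per CD3 fragment were 0.257, 0.115 and 0.270 in WT and 0.663, 0.629 and 0.712 in Crlf2-/- libraries. Both ratios were higher in every Crlf2-/- library than in any WT library. Fragment numbers depend on transcript length, so each ratio compares the groups and not the genes.

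Of 20 genes of the receptor complex and its first signalling steps, 18 had a negative and 2 a positive log2 fold change, with a median of -0.97, beside 50.2% negative and a median of -0.00046 for all genes tested. The list median was -0.39 with a pseudocount of 1 FPKM and -1.19 with voom. None was called by limma, and adjusted p ran from 0.0802 to 0.996. At an unadjusted p under 0.05, 14 were lower, beside 3.25% of all genes tested, and 0 were higher. For 14 every Crlf2-/- value lay below every WT value, beside 6.21% of all genes tested. Both counts were 13 of 19 without Trat1, which passed the filter through the WT libraries alone. The voom variant also gave 0 calls.
Cd8b1, a chain of the CD8 co-receptor, had the smallest adjusted p, 0.0802 by limma, with 114, 172 and 123 fragments in WT against 44, 39 and 51 in Crlf2-/- libraries and a log2 fold change of -1.55. Its partner Cd8a had 224, 247 and 154 against 106, 43 and 52 fragments and a log2 fold change of -1.61 (limma adjusted p = 0.218). In both genes the groups were apart.
Cd4, the co-receptor of helper and regulatory T cells that some macrophages also express, had 165, 115 and 107 against 108, 174 and 121 fragments. Its log2 fold change was 0.03 and the groups overlapped, and it became -0.14 without Crlf2-/- 2, -0.03 without WT 2 and -0.07 without WT 3.
The signalling chains Cd3g and Cd247 had log2 fold changes of -1.47 and -1.44, with limma adjusted p-values of 0.150 and 0.149. Lck, the kinase that starts receptor signalling, had -0.99, Zap70, the kinase that binds the phosphorylated chains, -0.90, and Lat, the adaptor downstream of it, -1.52. With a pseudocount of 1 FPKM these were -0.71 for Cd3g, -0.42 for Cd247, -0.66 for Lck, -0.38 for Zap70, -0.73 for Lat and -0.98 for Cd8a. Besides Cd4, 5 genes had overlapping groups. These were the T cell costimulator Cd28 with -0.21, the phosphatase Ptprc (CD45) with 0.14, Csk with -0.05, Fyn with -0.19 and Lcp2 with -0.20. Without Crlf2-/- 3, Cd28 was -0.09 and Lcp2 -0.03, without Crlf2-/- 1 they were -0.39 and -0.32, and without WT 1 Lcp2 was -0.12, while Fyn was -0.09 without Crlf2-/- 2. The sign turned for Ptprc without WT 2 (-0.013) and for Csk without WT 1 (0.023).

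**Figure D5:**
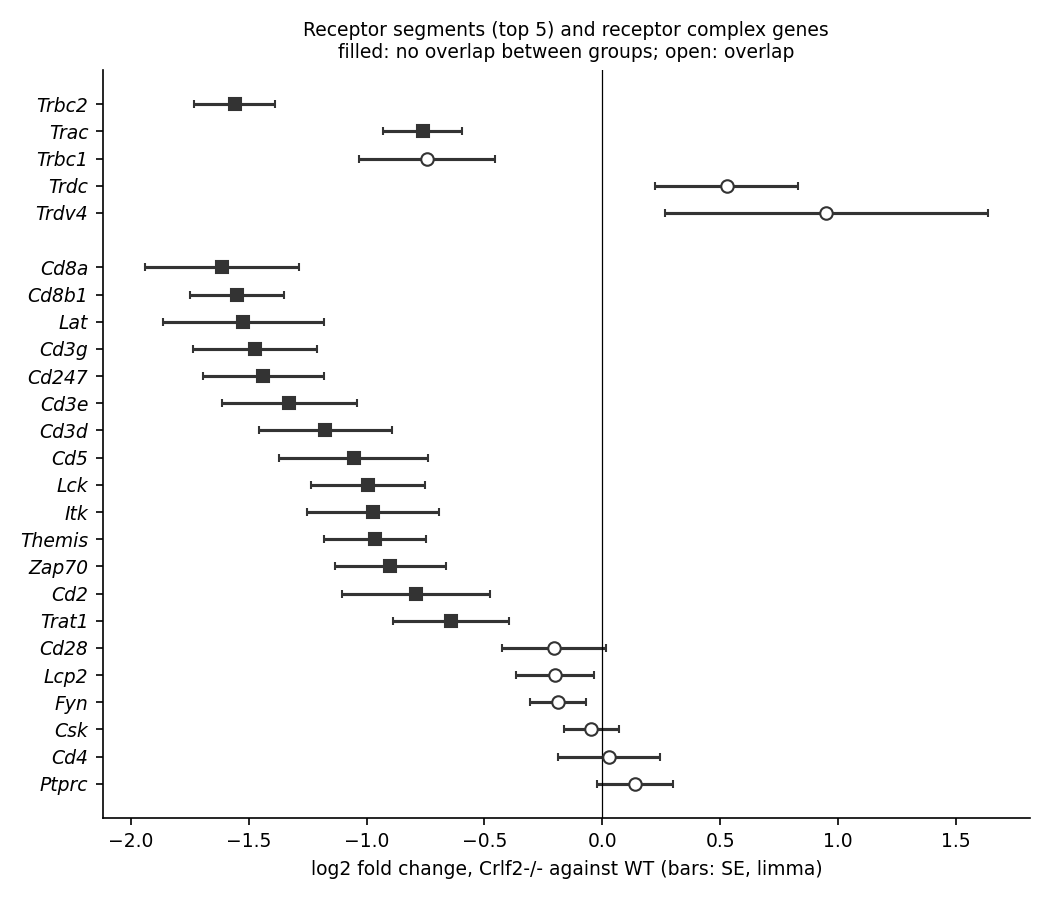
Log2 fold change of Crlf2-/- against WT from limma, with bars for the standard error, for the 5 tested receptor segments (top) and the 20 receptor complex genes (bottom). Filled squares mark genes whose groups do not overlap, among them Trbc2, Trac and Cd8b1, and open circles mark genes whose groups overlap.

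Markers of other cells that could hold receptor transcripts were set beside these results. The gamma-delta T cell list held 10 genes, of which 6 were tested. All 6 had a positive log2 fold change, with a median of 0.25, and 0 were called. Trdc among them is itself a receptor segment. Cd163l1 passed the filter through the Crlf2-/- libraries alone, with 5, 1 and 4 fragments in WT against 11, 10 and 16. Among untested genes, mean levels were lower in Crlf2-/- libraries for Tcrg-C2 (0.242 against 0.540 FPKM) and Il23r (0.036 against 0.061). They were higher for Tcrg-C1 (0.395 against 0.371) and Tcrg-C4 (0.136 against 0.107). Maf and Sox13, which other cells also express, made up most of the summed list level of 19.4 to 20.8 FPKM in WT and 19.4 to 24.6 FPKM in Crlf2-/- libraries. The NK and innate lymphoid list, whose cells can transcribe constant genes without a joined receptor, had 6 positive and 4 negative log2 fold changes and summed levels of 15.1 to 19.1 and 12.1 to 20.4 FPKM.
Genes of developing T cells in the thymus were low. Rag2 and Psmb11 were at 0 in every library and Rag1 had 6 fragments in all. The 7 genes of that list summed to 0.363 to 0.508 FPKM in WT and 0.461 to 0.527 FPKM in Crlf2-/- libraries. Most of this sum was the chemokine gene Ccl25, at 0.281 to 0.436 FPKM in WT and 0.361 to 0.427 FPKM in Crlf2-/- libraries. The B cell and lymph node list summed to 21.4 to 29.1 FPKM in WT and 9.88 to 29.3 FPKM in Crlf2-/- libraries. It had 4 positive and 6 negative log2 fold changes, with a median of -0.09, and 0 were called. Among the 6, Ccr7 had -0.76 without overlap of the groups (limma adjusted p = 0.519) and Cxcl13 had -1.61 with overlap (0.727). The stromal gene Ccl21a of this list had 178, 52 and 10 fragments in WT against 5, 205 and 6 in Crlf2-/- libraries, and was highest in WT 1 and Crlf2-/- 2. The name Ccl21a was listed 2 times, and the entry with the most fragments was used. The part of lymphoid tissue in the receptor results was not tested.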

How the data were processed

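RNA of 6 mouse hearts was sequenced. Per the study's methods, reads were cleaned with fastp, aligned with HISAT2 (2.0.5) and counted per gene with featureCounts, and the authors deposited FPKM values and gene lengths. The settings for strand, multi-mapping and overlapping genes are not given in the sources used here. A fragment that spans a V and a C segment touches 2 genes, and how it was counted can change every sum. The processing notes name builds hg38 and mm10, and all 226 segments had the same start and end in GENCODE M21 (GRCm38). FPKM times gene length gave whole fragments for 100% of nonzero values (tolerance 0.05). The table held 0 columns of other samples. The members and lists were chosen with earlier results of these data known.

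Scaling between libraries followed the trimmed mean of M values. Genes holding 10 or more fragments in 3 or more libraries, and 15 or more in total, were tested by limma 3.58.1 (R 4.3.3, eBayes with trend and robust) on log2(FPKM + 0.1), where log2 fold changes understate those of low genes. A call needed an adjusted p (Benjamini-Hochberg, over all genes) up to 0.05 and a log2 fold change of 0.5 or more in size. P-values measure the spread between these mice. FPM used the same scaling. Tables were made with Python 3.11.15. Scripts were tested on simulated data. Named segments were all C genes, those passing the filter, the 5 V and 3 J segments per chain with the most fragments, and segments of NKT and MAIT cells. Trav14d-3-dv8 was added as the third copy of its family after its values were seen. Same-numbered libraries were not taken as pairs, as their deviations correlated at -0.02, 0.12 and 0.12. Alternatives were other scalings, filters, pseudocounts, voom, a replicate block, other sums per chain and leaving out each library.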

Additional observations from a re-analysis of the deposited data

How the results depend on the processing

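No receptor segment and no receptor complex gene was called under any alternative. The number of genes called in the whole table, 2, was 1 when each library had to hold 10 or more fragments, 6 without a filter, and 4 with the replicate block, under which 0 segments were called and the adjusted p of Trbc2 was 0.171 by limma. It ran from 1 to 14 when 1 library was left out, with 14 without Crlf2-/- 1, 7 without WT 3, and 1 without WT 1, WT 2 or Crlf2-/- 3. The log2 ratio of the alpha chain was -0.66 and became -0.073 with constant genes left out and -0.41 with FPKM summed in place of fragments, and in both the groups overlapped. That of the delta chain, 0.61, became -0.34 with FPKM summed, a sum that gives short segments such as Trdj1 more weight. Over the fits that left out 1 library, the log2 fold change of Cd4 ran from -0.14 to 0.18, that of Ptprc from -0.013 to 0.24 and that of Csk from -0.12 to 0.023, so these directions are not settled. Of 450 comparisons with the values reported, 423 kept their direction and call. With 2170 receptor fragments in all, most single V and J segments held too few fragments to be tested.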

Other observations

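The 44 receptor pseudogene segments of the table, which were not among the 226 segments, held 1 fragment in WT 1 and 2 in Crlf2-/- 1 and none in the other libraries. The 2 segments without a chain prefix, B230359F08Rik and C920008G01Rik, lie among the alpha V segments on chromosome 14. B230359F08Rik had 2 fragments, both in WT 1, and C920008G01Rik had none. Trbv20 was 1 of the 2 beta V segments with more fragments in Crlf2-/- libraries, with 2, 2 and 0 there and 0 in WT. Trav6d-5 had 4 fragments, all in Crlf2-/- 1.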
